A study of Mus musculus with 8 samples.

Results

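The striatum of adult mice was examined for 32 genes that encode subunits of calcium, sodium and HCN channels. The genes were chosen by symbol from the 55032 genes of the deposited table: 8 pore subunits and 7 auxiliary subunits of voltage-gated calcium channels, 4 pore subunits and 3 beta subunits of voltage-gated sodium channels, 3 HCN channels, the sodium leak channel Nalcn, 3 ryanodine receptors and 3 IP3 receptors. The libraries came from female mice on a B6/C57 background at postnatal day 60. There were 4 wild type (WT) mice, named by the animal number in their labels as WT-1015, WT-1041, WT-1061 and WT-1063, and 4 16p11.2+/- mice, named in the same way as DF-1018, DF-1037, DF-1059 and DF-1062, where DF stands for this genotype. A 16p11.2+/- mouse lacks 1 copy of a chromosome 7 segment that corresponds to human 16p11.2, in every cell of the body, and the line is used as a model of autism spectrum disorder. Each library was made from total RNA of a dissected piece of striatum. It therefore pools neurons, glia and vessels, and fewer cells of a type cannot be told apart from less RNA per cell.

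Voltage-gated sodium channels carry the rising phase of the action potential, and voltage-gated calcium channels let calcium into the cell on depolarisation, where it triggers transmitter release and signalling. HCN channels open on hyperpolarisation and carry a depolarising current that sets resting potential and rhythmic firing, and NALCN passes a steady sodium leak. Ryanodine and IP3 receptors release calcium from the endoplasmic reticulum. The principal neurons of the striatum, the medium spiny neurons, are GABAergic projection cells with a hyperpolarised resting potential, and the thalamus and cortex that border or innervate the striatum hold neurons with other mixes of these channels.

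Each library held 15125051 to 16523429 counts. The 19 genes listed for the deleted segment were all lower in 16p11.2+/- mice, with a median log2 fold change of -1.0, and 13 of them passed an adjusted p of 0.05 in edgeR, so the libraries followed their genotype labels. The pieces of tissue differed between mice of the same genotype. Summed FPKM of 10 medium spiny neuron markers was 950 to 1600 in the WT mice, 1490 and 1390 in DF-1018 and DF-1059, and 370 and 296 in DF-1037 and DF-1062. Summed FPKM of 10 thalamus markers was 24.0 to 34.1 in WT-1015, WT-1041 and WT-1061 and in DF-1059, and 146 to 262 in WT-1063 and in DF-1018, DF-1037 and DF-1062. Summed FPKM of 7 markers of cortical glutamatergic neurons ranged from 21.8 to 124 in WT and from 11.8 to 158 in 16p11.2+/- mice, with Emx1 at 0 in 1 mouse. A list of 10 hypothalamic genes, chosen after their values were seen, was highest in DF-1062 for all 10 genes, with a summed FPKM of 276 against 4.52 to 23.2 in the other mice. Log2 fold changes were positive for 10 of 10 thalamus markers and negative for 10 of 10 medium spiny neuron markers and 7 of 7 cortical markers, and none of the marker lists had a gene past an adjusted p of 0.05 in edgeR. The 6 oligodendrocyte markers were all lower in 16p11.2+/- mice with an unadjusted edgeR p under 0.05, as found for 4.32% of all genes tested. Such a p was also found for 3 of 5 tested choroid plexus markers, all 5 lower in 16p11.2+/- mice. It was found too for 3 of 4 tested hypothalamic genes, all 4 higher. The oligodendrocyte markers summed to 1780 to 2070 FPKM in WT and 1110 to 1550 FPKM in 16p11.2+/- mice. Summed FPKM in WT and in 16p11.2+/- mice was 120 to 134 and 119 to 148 for astrocyte markers, 39.7 to 58.4 and 32 to 52.3 for microglia markers, 29.1 to 128 and 50.8 to 148 for markers of cholinergic and parvalbumin interneurons, and 4.65 to 7.31 and 4.94 to 7.01 for smooth muscle markers. The part of this make-up in the differences between genotypes was not tested, and its values are given beside the results they move with.

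All 32 channel genes were detected in every mouse, with 54 to 20990 counts per gene and mouse, and all entered the test. Their mean level in WT striatum spanned from 0.887 FPKM for Itpr3 to 208 FPKM for Scn4b. FPKM divides the count by the exon length of the gene and by the library total. The order of genes by FPKM therefore depends on this length, and levels are compared between genes by FPKM only. Without the length term, Hcn2 moved from rank 4 to rank 20 of the 32 in WT, and Cacna1e from rank 13 to rank 3. Scn4b stayed at rank 1, and 5 of the 8 highest genes by FPKM stayed among the 8 highest. Mean WT FPKM was at least 10 for 19 of the 32 genes and under 5 for 7, and 27 lay above the median of 3.99 FPKM over the 18294 genes tested. The order was Scn4b, Scn2b, Itpr1, Hcn2, Cacnb4, Scn3b, Scn2a, Cacnb1, Scn8a, Cacnb3, Cacna2d3, Cacna2d2, Cacna1e, Cacna2d1, Scn1a, Cacna1i, Cacna1b, Cacna1a, Cacna1h, Nalcn, Ryr3, Cacnb2, Scn3a, Cacna1g, Cacna1c, Cacna1d, Ryr2, Ryr1, Hcn3, Itpr2, Hcn4 and Itpr3. Of the 31 neighbouring pairs in this order, only 3 had WT values that did not overlap, namely Scn4b above Scn2b, Scn2b above Itpr1, and Cacna1c above Cacna1d. In 5 of the other pairs the WT values overlapped but the order was the same within each of the 4 WT mice: Scn3b above Scn2a, Scn2a above Cacnb1, Cacna1b above Cacna1a, Cacna1h above Nalcn, and Nalcn above Ryr3. For the remaining pairs the order differed between WT mice.

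**Figure D1:**
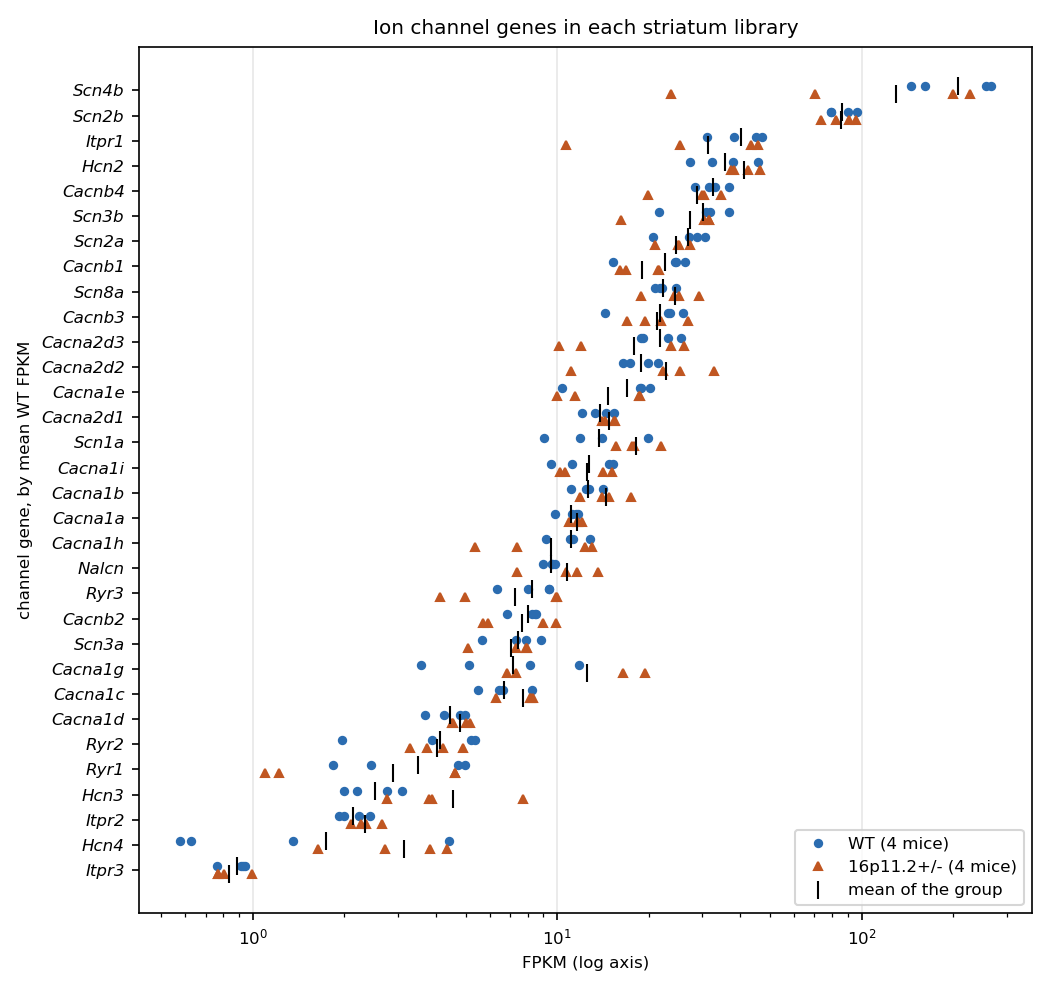
FPKM (log axis) of the 32 channel genes in each of the 4 WT mice (circles) and 4 16p11.2+/- mice (triangles), ordered by mean WT FPKM, with a black bar at each group mean. The groups overlap for all 32 genes, and Scn4b, at 23.6 to 267 FPKM over the 8 mice, is the highest gene by the mean of either group and in 6 of the 8 mice.

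No channel gene passed the test between the genotypes. In edgeR, 0 of the 32 genes passed an adjusted p of 0.05, against 20 of the 18294 genes tested (0.109%), and the lowest adjusted p among the 32 was 0.859. With an unadjusted p under 0.05, 1 gene remained, Hcn3, which is 3.12% of the 32 against 4.32% of all genes tested. DESeq2 and limma-voom also gave 0 genes at an adjusted p of 0.05 and Hcn3 alone without adjustment. No channel gene had FPKM values that were separate between the groups, against 2.83% of all genes tested. The log2 fold changes ran from -0.68 to 0.82 with a median of -0.05, against -0.0093 over all genes tested, and 14 of the 32 (43.8%) were positive against 48.2% of all genes. The 95% confidence interval lay between -1 and 1 on the log2 scale for 26 of the 32 genes, and for the other 6 it reached past this range. Only 4 of the 32 fold changes exceeded the standard deviation between mice of one genotype.

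**Figure D2:**
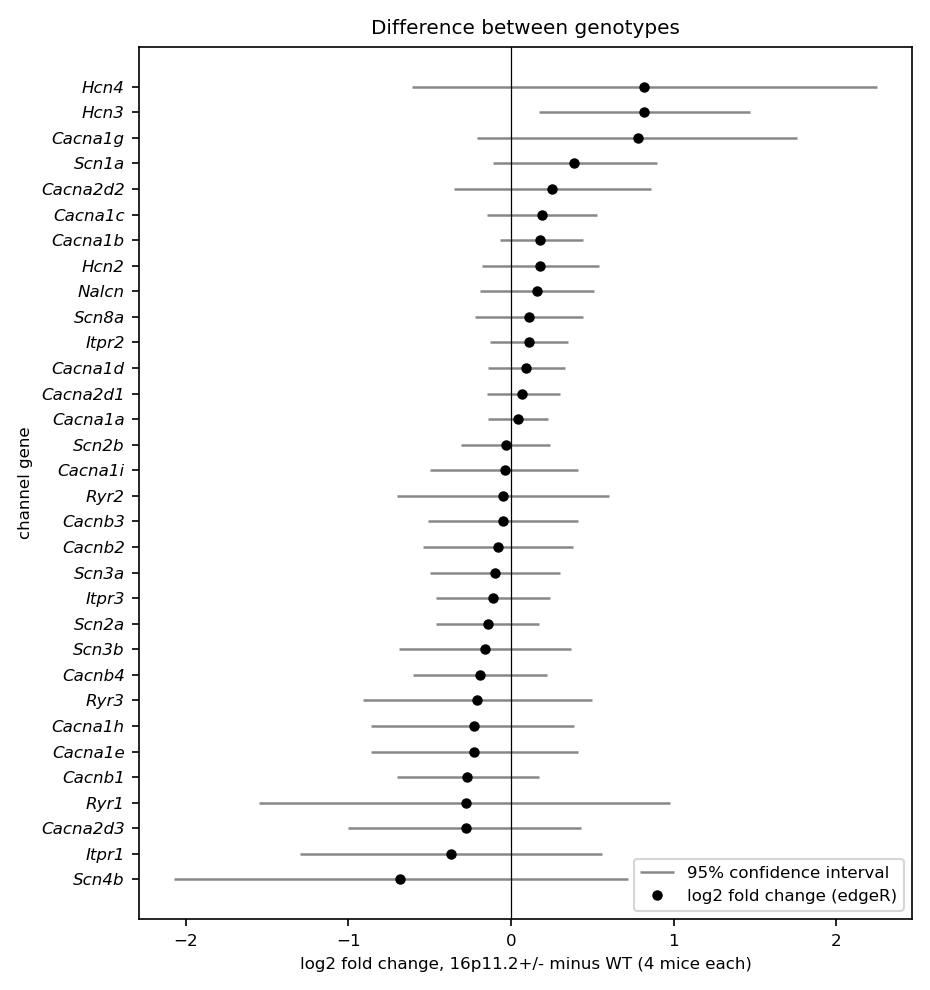
edgeR log2 fold change of each channel gene, 16p11.2+/- minus WT (4 mice each), with its 95% confidence interval. The interval of Hcn3, from 0.17 to 1.47, is the only one that does not include 0, and the intervals of Scn4b and Hcn4 are the widest.

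The spread between mice was wide for these genes. The biological coefficient of variation, edgeR's estimate of the spread between mice of one genotype, had a median of 0.211 over the 32 genes against 0.149 over the 11186 genes of the same range of expression, and 26 of the 32 lay above that value. The highest mouse exceeded the lowest by more than 3-fold for 6 genes (Scn4b, Hcn4, Cacna1g, Ryr1, Itpr1 and Hcn3) and by more than 2-fold for 14. At the other end stood the P/Q-type calcium channel gene Cacna1a, which varied only 1.22-fold over the 8 mice and had the lowest coefficient of variation, 0.113.

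**Figure D3:**
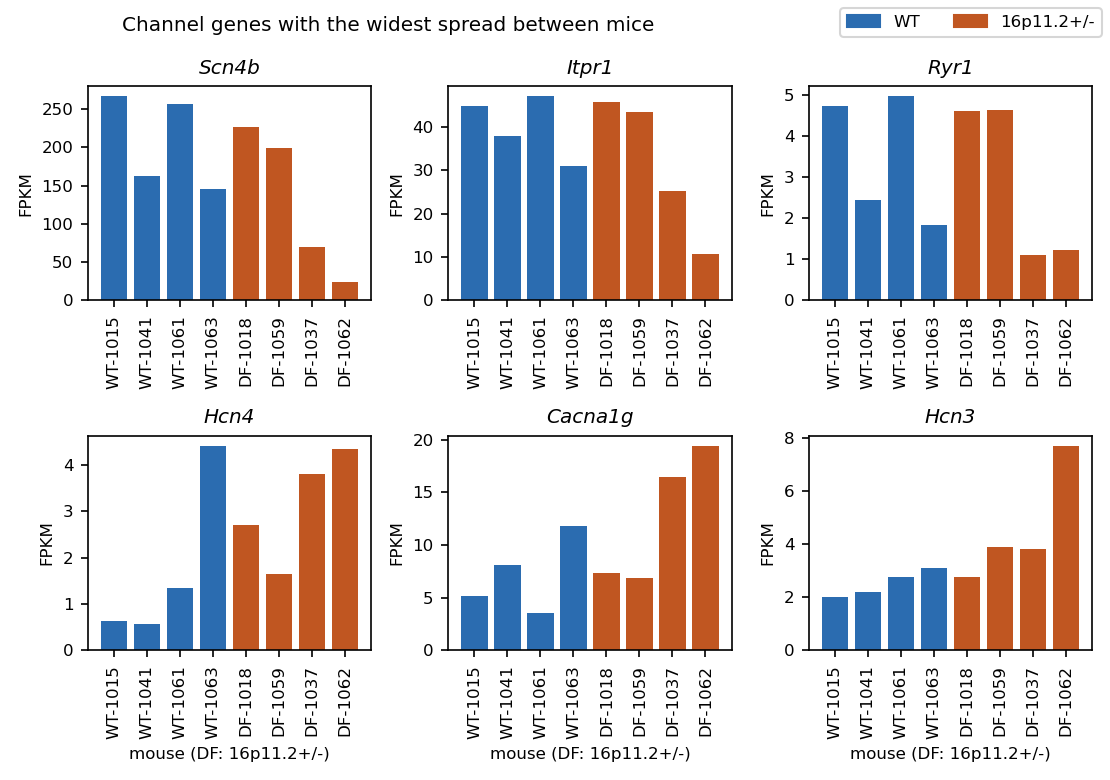
FPKM of the 6 channel genes whose highest mouse exceeded the lowest by more than 3-fold, as 1 bar for each mouse (WT blue, 16p11.2+/- orange). Scn4b, Itpr1 and Ryr1 are lowest in DF-1037 and DF-1062, and Cacna1g and Hcn3 are highest in DF-1062.

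The promoters of 4 genes are printed because the values of these genes moved together between mice: Scn4b and Ryr1 were lowest in the same mice, and Hcn4 and Scn1a were higher in the same 4 mice. Each runs from 250 bases before to 50 bases after the RefSeq transcription start (GRCm38.p6), 5′ to 3′ on the strand of the gene. Scn4b lies at chr9:45138374-45138673 (+), Ryr1 at chr7:29125102-29125401 (-), Hcn4 at chr9:58822699-58822998 (+) and Scn1a at chr2:66440788-66441087 (-). Capitals mark matches, on either strand, to the TATA box TATAAA, the GC box GGGCGG, the cAMP response core TGACG or the CCAAT box CCAAT.

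Scn4b: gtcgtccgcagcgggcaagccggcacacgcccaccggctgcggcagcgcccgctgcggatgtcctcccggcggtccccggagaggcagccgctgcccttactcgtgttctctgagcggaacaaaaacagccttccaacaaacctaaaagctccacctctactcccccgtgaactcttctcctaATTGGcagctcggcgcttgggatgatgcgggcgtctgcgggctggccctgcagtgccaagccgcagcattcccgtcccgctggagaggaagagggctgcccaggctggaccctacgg
Ryr1: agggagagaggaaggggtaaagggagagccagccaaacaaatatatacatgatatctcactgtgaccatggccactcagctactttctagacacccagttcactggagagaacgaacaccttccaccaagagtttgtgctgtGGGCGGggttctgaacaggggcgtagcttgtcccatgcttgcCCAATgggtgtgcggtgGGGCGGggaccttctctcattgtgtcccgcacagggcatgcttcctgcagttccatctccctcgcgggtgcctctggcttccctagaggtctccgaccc
Hcn4: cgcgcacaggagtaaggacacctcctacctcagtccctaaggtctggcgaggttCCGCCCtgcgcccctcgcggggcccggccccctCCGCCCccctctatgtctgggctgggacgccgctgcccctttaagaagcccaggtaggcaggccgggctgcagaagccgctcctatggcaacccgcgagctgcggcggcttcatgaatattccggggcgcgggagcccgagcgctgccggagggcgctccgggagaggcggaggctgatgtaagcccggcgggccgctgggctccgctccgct
Scn1a: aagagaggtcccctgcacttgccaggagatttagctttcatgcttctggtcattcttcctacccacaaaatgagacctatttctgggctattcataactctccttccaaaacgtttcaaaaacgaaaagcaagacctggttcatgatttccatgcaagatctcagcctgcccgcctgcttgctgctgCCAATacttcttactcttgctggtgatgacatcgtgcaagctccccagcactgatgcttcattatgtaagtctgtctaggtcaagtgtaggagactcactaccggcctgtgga

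The printed promoters of each pair did not share one make-up. Itpr1, Ryr3, Cacna1h, Cacna2d3 and Cacnb2 were also lowest in the mice in which Scn4b and Ryr1 were lowest. Hcn2 was also higher in the mice in which Hcn4 and Scn1a were higher. The promoters of these other genes are not printed. GC content was 66.3% for Scn4b and 56.7% for Ryr1, and 71.7% for Hcn4 and 47.3% for Scn1a. Scn4b and Ryr1 each held 1 CCAAT match, Ryr1 and Hcn4 each held 2 GGGCGG matches, and Scn1a held 1 CCAAT match. RefSeq promoters were matched for 24 of the 32 genes, 34 promoters in all, since a gene can have several starts. Their median GC content was 65.8% against 52.7% for all 32851 promoters, and their median number of CpG dinucleotides was 24.5 against 7. A GGGCGG match stood in 50% of them against 35.7% of all promoters, CCAAT in 26.5% against 37.4%, TGACG in 14.7% against 20.8% and TATAAA in 5.88% against 13.6%. The baseline of all promoters was not limited to genes detected in these libraries, and several promoters of a gene were counted separately. The matches are a description of the letters and were not tied to the levels.

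Among the sodium channel beta subunits, which modulate gating and hold the pore in the membrane, Scn4b had the highest mean of the 32 genes in either group and was the highest gene in 6 of the 8 mice, while Scn2b was the highest in DF-1037 and DF-1062. Scn4b encodes the beta4 subunit, known for its part in resurgent sodium current and for high expression in striatum. Scn4b stood at 267, 162, 257 and 145 FPKM in WT-1015, WT-1041, WT-1061 and WT-1063. In the 16p11.2+/- mice it stood at 227, 70.4, 199 and 23.6 FPKM in DF-1018, DF-1037, DF-1059 and DF-1062. The lowest values belonged to the 16p11.2+/- mice of lowest medium spiny neuron marker level, while the other 16p11.2+/- mice lay inside the WT range. The log2 fold change was -0.68 (SE 0.61, 95% interval -2.07 to 0.72, edgeR adjusted p = 0.861), and without DF-1037 and DF-1062 it was 0.042. Scn2b, whose subunit is linked to the pore by a disulphide bond, had the second highest mean, at 79.6 to 96.3 FPKM in WT and 73.6 to 95.6 FPKM in 16p11.2+/- mice. Its log2 fold change was -0.03 (SE 0.12, adjusted p = 0.954). Scn2b (chr9:45117782-45130070, GRCm38) and Scn4b (chr9:45138395-45154152) lie 8324 bases apart on the same strand, yet the highest mouse exceeded the lowest 11.3-fold for Scn4b and only 1.31-fold for Scn2b. Scn3b was at 21.6 to 36.8 FPKM in WT, and at 31.5, 16.2, 31.6 and 30.3 FPKM in DF-1018, DF-1037, DF-1059 and DF-1062. Its log2 fold change was -0.16 (SE 0.23, adjusted p = 0.893), and 0.025 without DF-1037. Of the summed FPKM of these 3 subunits, Scn4b made up 58.2% to 67.8% in WT, 64.1% and 61.9% in DF-1018 and DF-1059, and 43.9% and 17.3% in DF-1037 and DF-1062.

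The sodium channel pore subunits held a near constant sum with a shifting mix. Summed FPKM of Scn1a, Scn2a, Scn3a and Scn8a was 66.1 to 77.0 over the 8 mice, a 1.16-fold range. Scn2a, a main sodium channel of excitatory and spiny neurons, was the most abundant of them at 26.8 FPKM ± 4.25 (SD, n = 4) in WT and 24.6 ± 2.71 in 16p11.2+/- mice, with a log2 fold change of -0.14 (SE 0.14). Scn8a, found at nodes of Ranvier and axon initial segments, was at 22.3 ± 1.58 FPKM in WT and 24.3 ± 4.21 FPKM in 16p11.2+/- mice. Scn3a, known best as the embryonic brain form, was at 7.43 ± 1.35 FPKM in WT and 7.07 ± 1.35 FPKM in 16p11.2+/- mice. Scn1a, the sodium channel of fast-spiking interneurons that is mutated in Dravet syndrome, was at 11.9, 9.07, 14.0 and 19.8 FPKM in WT-1015, WT-1041, WT-1061 and WT-1063. In DF-1018, DF-1037, DF-1059 and DF-1062 Scn1a was at 17.9, 21.9, 15.6 and 17.6 FPKM. WT-1063 thus lay among the 16p11.2+/- mice, above 3 of them, and the other WT mice lay below all 4. The log2 fold change of Scn1a was 0.39 (SE 0.22, adjusted p = 0.859). Without WT-1063, which had the highest thalamus marker sum of the WT mice, it was 0.62. The unadjusted edgeR p was then 0.00831 and the adjusted p 0.517. That fit left only 16p11.2+/- mice at high thalamus marker level. With all mice and the thalamus marker score as a covariate, the log2 fold change was 0.17 with an unadjusted edgeR p of 0.299. In fits with a lone mouse of 1 genotype, within mice of high and of low thalamus marker level, it was -0.037 and 0.4. The share of Scn1a in the summed FPKM of the 4 pore subunits ranged from 13.7% in WT-1041 to 29.1% in WT-1063.

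Scn1a, Hcn2 and Hcn4 were each higher in the 4 mice of high thalamus marker level (WT-1063 and DF-1018, DF-1037 and DF-1062) than in the other 4, as were 4.99% of all genes tested. Scn2a was lower in each, and the share of all genes that were lower in each was not counted. Of these 4 mice 3 were 16p11.2+/-. Hcn2, the main HCN channel gene of the striatal libraries by level, was at 32.3, 27.2, 37.9 and 45.6 FPKM in WT-1015, WT-1041, WT-1061 and WT-1063 and at 42.3, 46.4, 37.1 and 38.2 FPKM in DF-1018, DF-1037, DF-1059 and DF-1062. The groups overlapped, and the log2 fold change was 0.18 (SE 0.16, adjusted p = 0.859). Hcn4, the pacemaker channel of the heart that is also made in thalamic neurons, was at 0.627, 0.576, 1.35 and 4.41 FPKM in WT-1015, WT-1041, WT-1061 and WT-1063. In the 16p11.2+/- mice Hcn4 was at 2.71, 3.81, 1.64 and 4.34 FPKM in DF-1018, DF-1037, DF-1059 and DF-1062. WT-1063 was the highest of the 8 mice and the other WT mice were the lowest. The log2 fold change was 0.82 (SE 0.63, 95% interval -0.61 to 2.25, adjusted p = 0.859), and its coefficient of variation of 0.605 was the highest of the 32. Without WT-1063 the log2 fold change of Hcn4 was 1.84 with an unadjusted edgeR p of 0.0021 and an adjusted p of 0.511. That fit left only 16p11.2+/- mice at high thalamus marker level. With all mice and the thalamus marker score as a covariate it was 0.39 with an unadjusted edgeR p of 0.271. Within the 4 mice of high thalamus marker level it was -0.27, and within the 4 of low level it was 0.92. Each fit by thalamus marker level has 1 mouse in 1 genotype, which is assumed to vary like the others.

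Hcn3 had the lowest unadjusted p of the channel genes. It encodes the least studied HCN subunit, with slow gating and little response to cAMP. Hcn3 was at 1.99, 2.20, 2.75 and 3.10 FPKM in WT-1015, WT-1041, WT-1061 and WT-1063, and at 2.75, 3.80, 3.89 and 7.69 FPKM in DF-1018, DF-1037, DF-1059 and DF-1062. Of the 16p11.2+/- mice 3 lay above every WT mouse, and DF-1018 lay within the WT range. The log2 fold change was 0.82 (SE 0.29, 95% interval 0.17 to 1.47), with an unadjusted edgeR p of 0.0196 and an adjusted p of 0.859. The highest value belonged to DF-1062, the mouse of high hypothalamic markers, and without it the log2 fold change was 0.48 with an unadjusted p of 0.0345. Without DF-1037 and DF-1062 it was 0.41 with an unadjusted p of 0.107, and with the medium spiny neuron marker score as a covariate it was 0.46 with an unadjusted p of 0.095. With the thalamus marker score as a covariate it was 0.71 with an unadjusted p of 0.0569, and within the mice of high and of low thalamus marker level it was 0.61 and 0.73 with unadjusted p of 0.34 and 0.0137. Without WT-1015 or WT-1041 the unadjusted p was 0.0532 or 0.0509. Of the exon bases of Hcn3, 17.1% overlap Pklr on the opposite strand, and whether counting used strand is not given in the sources used here. Pklr was at 0 to 0.102 FPKM in the 8 mice.

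Of the calcium channel pore subunits, the T-type (CaV3) genes held a near constant sum while their mix differed between mice. T-type channels open near resting potential and drive burst firing. Cacna1g was at 5.14, 8.13, 3.58 and 11.8 FPKM in WT-1015, WT-1041, WT-1061 and WT-1063. In DF-1018, DF-1037, DF-1059 and DF-1062 Cacna1g was at 7.34, 16.5, 6.86 and 19.4 FPKM. The highest values belonged to DF-1037 and DF-1062, and the other 16p11.2+/- mice lay inside the WT range. The log2 fold change was 0.78 (SE 0.43, 95% interval -0.21 to 1.76, adjusted p = 0.859), and -0.00088 without DF-1037 and DF-1062. Without WT-1063 it was 1.12 with an unadjusted edgeR p of 0.0295 and an adjusted p of 0.572. With all mice and the thalamus marker score as a covariate it was 0.33 with an unadjusted edgeR p of 0.382. Cacna1h was at 11.1 ± 1.47 FPKM in WT (SD, n = 4) and at 12.3, 5.37, 13.0 and 7.36 FPKM in DF-1018, DF-1037, DF-1059 and DF-1062. Cacna1i was at 9.53 to 15.2 FPKM in WT and 10.2 to 15.1 FPKM in 16p11.2+/- mice. The sum of the 3 T-type genes stayed within 30.3 to 37.0 FPKM, a 1.22-fold range, while the share of Cacna1g in it ran from 11.3% in WT-1061 to 52.5% in DF-1062. In WT mice this share was 23.3% ± 12.1 and in 16p11.2+/- mice 36.2% ± 17.9 (SD, n = 4 each).

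Of the presynaptic (CaV2) pore genes, Cacna1a and Cacna1b varied 1.22-fold and 1.58-fold over the 8 mice and Cacna1e 2.01-fold. Cacna1a, the P/Q-type channel, was at 11.1 ± 0.828 FPKM in WT and 11.6 ± 0.477 FPKM in 16p11.2+/- mice (SD, n = 4 each). Cacna1b, the N-type channel, was at 12.6 ± 1.25 and 14.5 ± 2.32 FPKM. Cacna1e, the R-type channel, was at 20.2, 18.7, 18.8 and 10.4 FPKM in WT-1015, WT-1041, WT-1061 and WT-1063 and at 18.7, 10, 18.5 and 11.4 FPKM in DF-1018, DF-1037, DF-1059 and DF-1062. For this gene WT-1063, DF-1037 and DF-1062 were low together. The L-type (CaV1) genes, which couple synaptic activity to transcription, were less abundant. Cacna1c was at 6.70 ± 1.15 FPKM in WT and 7.74 ± 0.954 FPKM in 16p11.2+/- mice, and Cacna1d at 4.43 ± 0.59 and 4.80 ± 0.329 FPKM. These 5 genes had log2 fold changes from -0.23 to 0.19.

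The cytoplasmic beta subunits, which bring the calcium channel pore to the membrane, all had a negative log2 fold change, and none passed the test. Cacnb4, the gene mutated in the lethargic mouse, was the most abundant. It was at 28.4 to 36.6 FPKM in WT and at 34.4, 29.9, 30.4 and 19.9 FPKM in DF-1018, DF-1037, DF-1059 and DF-1062, with a log2 fold change of -0.19 (SE 0.18, adjusted p = 0.864). Of its exon bases 16.0% overlap a gene on the opposite strand. Cacnb1, the form first known from skeletal muscle, was at 26.3, 24.3, 24.5 and 15.2 FPKM in WT-1015, WT-1041, WT-1061 and WT-1063 and at 16.1 to 21.6 FPKM in 16p11.2+/- mice, so that WT-1063 was the lowest of all. Its log2 fold change was -0.27 (SE 0.19, adjusted p = 0.859), -0.42 without WT-1063, and -0.01 with the thalamus marker score as a covariate. Cacnb3 was at 21.7 ± 5.03 FPKM in WT and 21.3 ± 4.28 FPKM in 16p11.2+/- mice, and Cacnb2 at 8 ± 0.796 and 7.64 ± 2.14 FPKM (SD, n = 4 each).

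The alpha2delta subunits sit on the outer face of the membrane and raise the number of calcium channels at the surface. Cacna2d1, a binding site of gabapentin, was even across the mice at 13.8 ± 1.46 FPKM in WT and 14.8 ± 0.749 FPKM in 16p11.2+/- mice (SD, n = 4 each). Cacna2d3 and Cacna2d2 differed more between mice. Cacna2d3 was at 18.8 to 25.5 FPKM in WT and at 26.0, 12, 23.7 and 10.1 FPKM in DF-1018, DF-1037, DF-1059 and DF-1062, with DF-1037 and DF-1062 below every other mouse. Cacna2d2, which is mutated in the ducky mouse, was at 16.5 to 21.4 FPKM in WT and at 22.2, 11.1, 25.3 and 32.8 FPKM in DF-1018, DF-1037, DF-1059 and DF-1062. Here DF-1037 was the lowest and the other 16p11.2+/- mice lay above every WT mouse. The same held for the sodium leak channel Nalcn, at 9.01 to 9.87 FPKM in WT and 10.7, 7.38, 11.6 and 13.6 FPKM in DF-1018, DF-1037, DF-1059 and DF-1062. In a fit without DF-1037, the log2 fold change of Nalcn was 0.31 with an unadjusted edgeR p of 0.0062, and that of Cacna2d2 was 0.49 with an unadjusted edgeR p of 0.00685. The groups then did not overlap for these genes, nor for 6.81% of all genes tested. The lowest adjusted p among the channel genes in that fit was 0.822, and 5.69% of all genes had an unadjusted p under 0.05. With all mice the log2 fold change was 0.16 for Nalcn and 0.25 for Cacna2d2. When DF-1062, the highest mouse for both genes, was left out, it was 0.07 for each. The unadjusted edgeR p was then 0.652 for Nalcn and 0.785 for Cacna2d2.

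Of the channels that release calcium from the endoplasmic reticulum, Itpr1 was the most abundant. It encodes the main neuronal IP3 receptor, best known from Purkinje cells. Itpr1 was at 44.9, 38.0, 47.1 and 31.1 FPKM in WT-1015, WT-1041, WT-1061 and WT-1063 and at 45.8, 25.3, 43.4 and 10.7 FPKM in DF-1018, DF-1037, DF-1059 and DF-1062. As for Scn4b, DF-1037 and DF-1062 lay below all other mice. Its log2 fold change was -0.37 (SE 0.41, adjusted p = 0.874), and 0.15 without these mice. Itpr2 was at 2.14 ± 0.226 FPKM in WT and 2.34 ± 0.236 FPKM in 16p11.2+/- mice (SD, n = 4 each), and Itpr3 was under 1 FPKM in every mouse. Itpr1 made up 91.2% to 93.9% of the summed FPKM of the 3 IP3 receptors in WT and 77.5% in DF-1062.

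The ryanodine receptors were each at low or moderate level. Ryr3 was at 6.33 to 9.39 FPKM in WT and at 9.95, 4.11, 9.92 and 4.97 FPKM in DF-1018, DF-1037, DF-1059 and DF-1062. Ryr2, the cardiac form that is also the main one in many brain regions, was at 5.36, 5.22, 3.87 and 1.97 FPKM in WT-1015, WT-1041, WT-1061 and WT-1063, and at 3.29 to 4.90 FPKM in 16p11.2+/- mice. Ryr1, the skeletal muscle form, was at 4.72, 2.45, 4.97 and 1.83 FPKM in the same WT mice and at 4.60, 1.10, 4.63 and 1.22 FPKM in DF-1018, DF-1037, DF-1059 and DF-1062. The WT mice themselves split for Ryr1, with WT-1015 and WT-1061 above WT-1041 and WT-1063. Ryr1 (chr7:29003344-29125179) is the only one of the 32 genes on chromosome 7, and it lies far from the deleted genes listed, which span chr7:126699773-127042471. Its log2 fold change was one of 20 that are given as a range: these ran from -0.28 to 0.25, with 11 negative and 9 positive, unadjusted p of at least 0.142 and edgeR adjusted p of 0.859 to 0.971.

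By single genes, DF-1037 and DF-1062 were the mice of lowest FPKM for 7 of the 32 genes: Scn4b, Itpr1, Ryr1, Ryr3, Cacna1h, Cacna2d3 and Cacnb2. Over all genes tested the share was 9.46%. These 7 genes span sodium channel, calcium channel and intracellular release roles, and the medium spiny neuron markers were lowest in the same mice. WT-1063 was the lowest mouse for 10 genes, against 9.77% of all genes tested, and had high thalamus markers together with a summed FPKM of 4440 for 7 choroid plexus markers, against 8.13 to 479 in the other mice. Without DF-1037 and DF-1062, 26 of the 32 log2 fold changes were positive with a median of 0.15, in place of 14 and -0.05, and 0 genes passed an adjusted p of 0.05. Without WT-1063, 5 channel genes had an unadjusted p under 0.05 (Scn1a, Hcn4, Cacna1g, Hcn3 and Cacnb1), when 8.21% of all genes tested did so, and 0 passed the adjusted threshold. The part of tissue make-up in these differences was not tested.

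**Figure D4:**
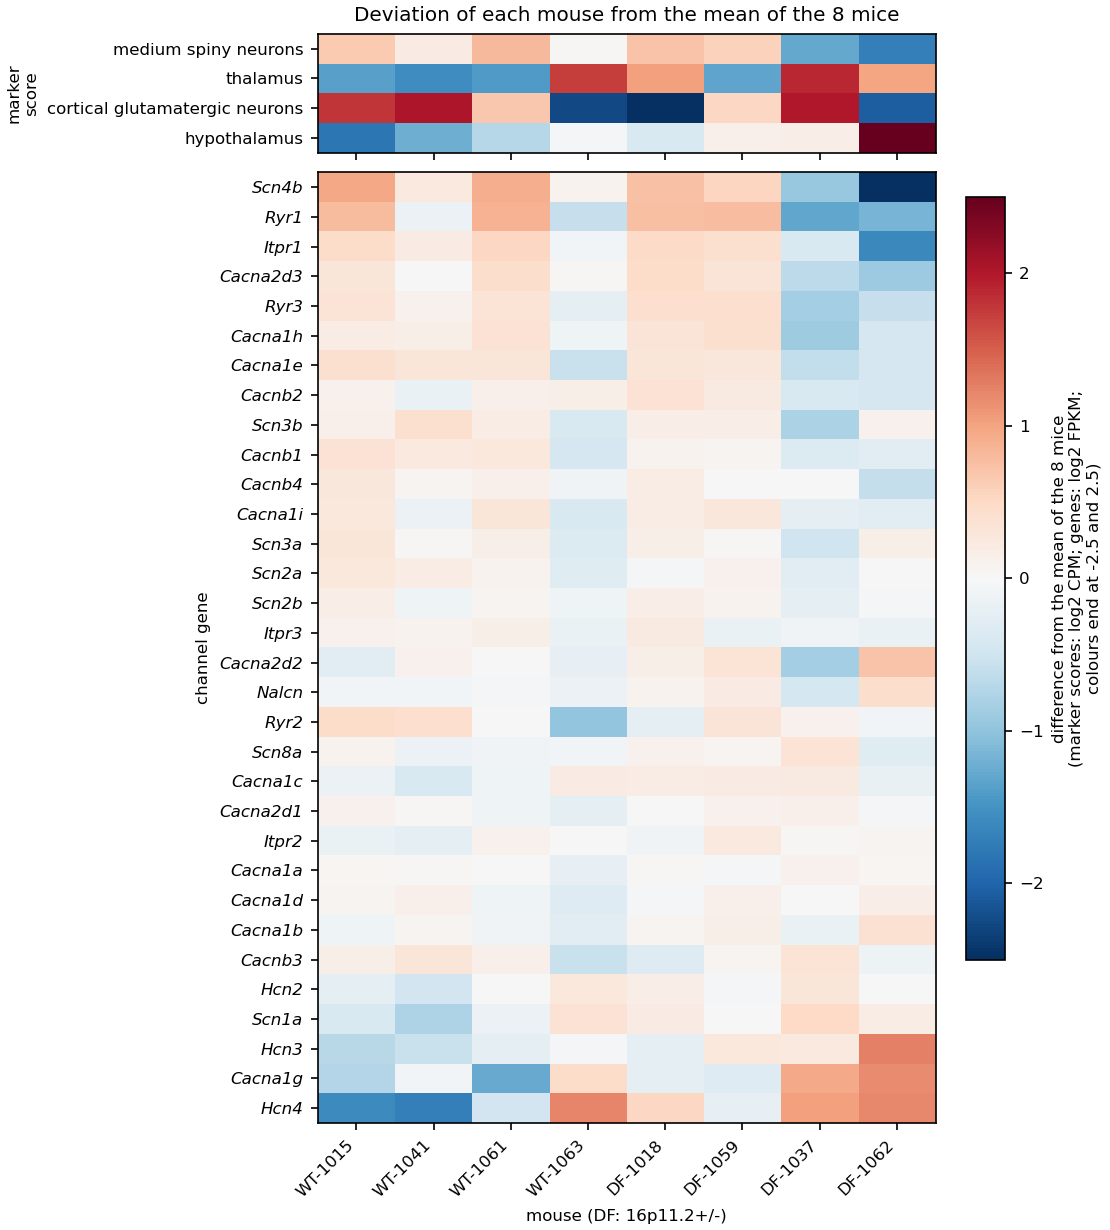
Deviation of each mouse from the mean of the 8 mice, for 4 marker scores (top, log2 CPM) and for log2 FPKM of the 32 channel genes (bottom), which are ordered by their mean in DF-1037 and DF-1062. Scn4b, Ryr1 and Itpr1 are blue in the mice whose medium spiny neuron score is blue, and Hcn4 is red in WT-1063 and in DF-1018, DF-1037 and DF-1062.

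A list of 55 further genes was read beside the 32: the remaining members of these families and the proteins that regulate the channels. Of these, 51 entered the test, 24 had a positive and 27 a negative log2 fold change, and 0 passed an adjusted p of 0.05 in edgeR. With an unadjusted p under 0.05, 1 gene remained (1.96% against 4.32% of all genes tested). This was Stim2, a sensor of calcium in the endoplasmic reticulum, at 14.5 to 16.0 FPKM in WT and at 14.0, 11.0, 13.2 and 10.6 FPKM in DF-1018, DF-1037, DF-1059 and DF-1062. The groups did not overlap, as for 2.83% of all genes tested. The log2 fold change was -0.33 (SE 0.12), the unadjusted edgeR p was 0.0186 and the adjusted p was 0.859. The lowest values belonged to DF-1037 and DF-1062, and without these mice 0 of the further genes had an unadjusted p under 0.05. Log2 fold changes were positive for 4 of the 17 genes of intracellular calcium release and reuptake (from -0.52 to 0.78), 5 of the 9 calcium channel regulators (-0.53 to 0.23) and 4 of the 9 regulators of sodium and HCN channels (-0.30 to 0.24). They were positive for the 3 genes of the NALCN complex (0 to 0.27) and for 8 of the 13 tested remaining family members (-0.31 to 0.85), against 48.2% of all genes tested.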

How the data were processed

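RNA was measured in 8 striatum libraries, 4 per genotype. The authors extracted total RNA with TRIzol, sequenced paired ends on an Illumina HiSeq, mapped reads with Hisat2 and made the deposited read counts per gene with Htseq-count. The labels' processing notes name Bowtie 0.12.2, mm8 and mm9 instead, and this difference was not settled. The FPKM values were made by the authors from the same counts. They equal the count divided by exon length and library total, and the implied lengths equal GENCODE M21 (GRCm38) exon lengths within 1 base for 95.3% of 14636 genes with at least 50 counts and for 31 of the 32 channel genes (not Itpr3), so GRCm38 positions are given. The authors' own comparison columns (fold changes and p-values) and their FPKM summary were not used.

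Counts were tested with edgeR 4.0.16 (quasi-likelihood, TMM factors, filterByExpr minimums of 10 and 15 counts, Benjamini-Hochberg adjustment over 18294 genes, threshold 0.05) in R 4.3.3. Mice of one genotype differed beyond sampling noise, with a chi-square per degree of freedom of 8.07 to 55.99. On simulated data for this comparison (17920 genes, 4 against 4) the share called was 4.545% of 66 genes given a log2 change of 0.5, 43.08% of 65 given 1 and 78.46% of 65 given 2, and 6.818% of calls were false. Alternatives were DESeq2 1.42.0, limma-voom (limma 3.58.1), RLE factors, library totals, 2 other count filters, covariates and each mouse left out. A marker score is the mean log2 CPM of its list.

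The channel genes and all lists were chosen with earlier results of these data known. The hypothalamus list, the medium spiny neuron covariate, the fit without DF-1037 and DF-1062 and the fits within mice of high or low thalamus score were chosen after seeing the data. The 4 promoters printed were chosen by the values of their genes. Fold changes with errors are given for genes with an unadjusted p under 0.05, an absolute log2 fold change above 0.3, groups that do not overlap, or a place among the 8 highest by WT FPKM, which makes 12 genes. Nalcn and Cacna2d2 were named outside this rule, after their values without DF-1037 were seen. The symbol Fam155b was not analysed here.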

Additional observations from a re-analysis of the deposited data

Results flagged for a closer look

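In 6 of 64 groups of 4 mice (32 genes in each genotype), 1 mouse stood apart from the other 3 by more than Dixon's critical value for the ratio of the gap to the nearest mouse over the range of the group. Chance alone sets apart a mouse in about 1 of 20 groups. Scn3b in DF-1037 was at 16.2 FPKM against 30.3 to 31.6 FPKM in the other 16p11.2+/- mice (ratio 0.914). Cacna1e in WT-1063 was at 10.4 FPKM against 18.7 to 20.2 FPKM (ratio 0.842). Cacna1c in DF-1062 was at 6.31 FPKM against 8.13 to 8.33 FPKM (ratio 0.901). Cacnb2 in WT-1041 was at 6.82 FPKM against 8.27 to 8.49 FPKM (ratio 0.865). Itpr3 was set apart in both genotypes, at 0.764 FPKM in WT-1063 against 0.915 to 0.943 FPKM (ratio 0.84) and at 0.993 FPKM in DF-1018 against 0.766 to 0.805 FPKM (ratio 0.831). The mice concerned were WT-1041 once, WT-1063 for 2 genes, and DF-1018, DF-1037 and DF-1062 once each.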

How the results depend on the processing

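No channel gene passed an adjusted p of 0.05 under any alternative. No paired analysis was possible because the sources used here give an animal number for each mouse but no litter or other pairing. At 4 mice per genotype the test on simulated data called few genes given a log2 change of 0.5, so differences of this size were mostly not detectable. Within mice of high or low thalamus score, 1 genotype has a lone mouse, assumed to vary like the others. The number of channel genes with an unadjusted p under 0.05 (1) became 0 with the medium spiny neuron score as a covariate, 4 in mice of low thalamus score (Hcn3, Cacna1c, Cacna2d2 and Nalcn), 2 with the thalamus score as a covariate (Cacna1b and Cacna1d, not Hcn3) and 2 without DF-1037 and DF-1062 (Cacna2d2 and Nalcn, not Hcn3), when 3.12%, 4.63%, 4.21% and 4.03% of all genes had such a p. In mice of high thalamus score it was 1 (Ryr2, not Hcn3), against 2.6% of all genes. The number with a positive log2 fold change (14) became 27 with the medium spiny neuron covariate, 23 in mice of high thalamus score, 24 with the thalamus covariate and 26 without DF-1037 and DF-1062, when 47.9%, 54.8%, 49.5% and 47.6% of all genes were positive. The median of the 32 became 0.22 in mice of high thalamus score and 0.15 without DF-1037 and DF-1062. All genes called (20) became 31 with DESeq2, 0 and 3 in mice of high and low thalamus score, 13 with the thalamus covariate and 11 without DF-1037 and DF-1062. The deleted genes called (13) became 0 in either thalamus subset and 7 without DF-1037 and DF-1062. Regulator and family genes with an unadjusted p under 0.05 (1) became 2 with DESeq2, the cortical covariate, the medium spiny neuron covariate and in either thalamus subset, 3 with no filter and with the thalamus covariate, and 0 without DF-1037 and DF-1062. The cause of these shifts was not tested.

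Of 144 recomputed fold changes of the 12 named genes, not counting the fits that leave out 1 mouse, 22 turned direction. Without DF-1037 and DF-1062 these were Scn4b (0.042), Scn2b (0.12), Itpr1 (0.15), Cacnb4 (0.0088), Scn3b (0.07) and Cacna1g (-0.00088). With the medium spiny neuron covariate they were Scn2b (0.098), Itpr1 (0.07), Cacnb4 (0.0024) and Scn3b (0.00043). In mice of high thalamus score they were Scn2b (0.094), Hcn2 (-0.09), Cacnb4 (0.01), Scn3b (0.28), Scn2a (0.21), Cacnb1 (0.28), Scn1a (-0.037) and Hcn4 (-0.27), and in mice of low score Scn2b (0.015). With the thalamus covariate they were Scn2b (0.042), Scn3b (0.1) and Scn2a (0.037). With each mouse left out in turn, unadjusted calls of channel genes ran from 0 to 5 (2.47% to 8.21% of all genes, the highest in the fit with 5, without WT-1063), positive fold changes from 13 to 19, their median from -0.12 to 0.045, genes with separate groups from 0 to 4 (4.19% to 10.2% of all genes, the highest in the fit with 4, without WT-1063), all genes called from 8 to 18, deleted genes called from 5 to 12 and unadjusted calls of regulator and family genes from 1 to 6. Scn2b then ran from -0.1 to 0.035 and Scn3b from -0.3 to 0.025. The order by level depends on the length term, since 5 of the 8 highest genes by FPKM were among the 8 highest by CPM.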
